A study of Mus musculus with 8 samples.

Results

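The genes described here encode complexes III, IV and V of the mitochondrial respiratory chain, with their assembly factors. They are the 53 genes, of 16640 in the authors' deposited table, whose symbol starts with Uqcr, Uqcc or Atp5, or with Cox followed by a digit. The rule gave 11 genes of complex III, 26 of complex IV and 16 of complex V, and used no measured value. All 53 Entrez IDs were found in RefSeq. Whole livers of 8 mice were compared by bulk RNA sequencing. The 4 KO mice had a Huwe1 deletion specific to the liver and the 4 WT mice had none, and in both groups the mice ate chow at will and the livers were taken at an age of 1 year. Huwe1 encodes a ubiquitin ligase of the HECT type. The sources used here give neither the Cre driver, nor the deleted exons, nor the sex of the mice, nor whether the WT mice carried unrecombined alleles.

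Respiratory complexes III, IV and V sit in the inner mitochondrial membrane. Complex III passes electrons from ubiquinol to cytochrome c, complex IV (cytochrome c oxidase) passes them on to oxygen, and both pump protons out of the matrix. Complex V (ATP synthase) lets the protons flow back through a rotor and makes ATP. A liver depends on them for the energy of glucose, urea and lipid synthesis. In the annotation terms of the deposited table, mitochondrion is given for 47 of the 53 genes (88.7%), against 8.32% of all genes. Complexes III, IV and V each combine subunits encoded in the nucleus with subunits encoded in mitochondrial DNA, and the mitochondrially encoded subunits were not analysed here.

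For each gene the table holds 1 value for KO and 1 for WT, taken here as normalized for depth. It also holds a KO over WT fold change on the log2 scale and p-values from the authors' DESeq2 comparison. Values per liver were not analysed here. Each error below is therefore the standard error that the deposited p implies for a deposited log2 fold change, called the implied SE. A gene is called changed at a deposited adjusted p under 0.05. Nothing in the labels says that the livers came from separate litters or days, so the p-values measure the spread among these 8 livers, some of which may be technical. The deposited values sum to 17533080 in KO and 17347886 in WT. Huwe1 had a deposited value of 1784 in KO and 2666 in WT (log2 fold change -0.58, implied SE 0.13, DESeq2 adjusted p = 0.000425).

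Most of the 53 genes stood slightly lower in KO livers, and few of them changed. By the deposited calls, 3 genes fell, namely Cox18, Cox19 and Uqcr11, and 1 rose, Cox6b2, while 49 did not pass the test. Of the 48 genes with a mean deposited value of 10 or more, 41 had a log2 fold change below 0, a number that dropped to 33 when the fold changes were centred on the most abundant eighth of all genes and to 34 when the trend with gene length and level was removed. The median deposited log2 fold change of those 48 genes was -0.16, against 0.01 for all genes at that level. Centring on the most abundant eighth, whose own median was -0.08, brought the median of the 48 genes to -0.08, and removing the trend brought it to -0.09. The centring shifts every gene by the same amount, so the gap between these 48 genes and all genes stays as deposited.

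These counts are read against the whole table. Of all 16640 genes, 9.97% were called in the authors' deposited comparison, 4.41% as higher and 5.56% as lower in KO, against 4 of the 53 (7.55%). Genes with a mean deposited value under 10 are part of that background. With them left out and p adjusted again, 14.6% of 12309 genes were called, 794 higher and 1006 lower. Of the 48 genes here at that level, 6.25% were called, 0 higher and 3 lower. At an unadjusted deposited p under 0.05, 14 of the 53 passed (26.4%), against 20.5% of all genes. Lower in KO at that threshold were 12 of the 53 (22.6%), against 10.8% of all genes. Among the 12309 genes with a mean deposited value of 10 or more, 48.7% had a log2 fold change below 0, against 85.4% of the 48 genes here. These shares describe the genes and were not tested as a set. Summed over all 53 genes, the deposited values came to 129857 in KO and 146621 in WT, so that the KO sum was 88.6% of the WT sum. With bulk tissue, fewer cells of a type and less RNA per cell cannot be told apart.

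The precision was enough to bound most of the genes. The median implied SE was 0.14 on the log2 scale over the 48 genes with a mean deposited value of 10 or more. For 38 of the 53 genes the whole implied 95% interval of the deposited log2 fold change lay within 1.5-fold in either direction. These were 9 of 11 in complex III, 16 of 26 in complex IV and 13 of 16 in complex V. For these 38 genes a change beyond 1.5-fold lies outside the interval, as far as the implied SE holds.

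**Figure D1:**
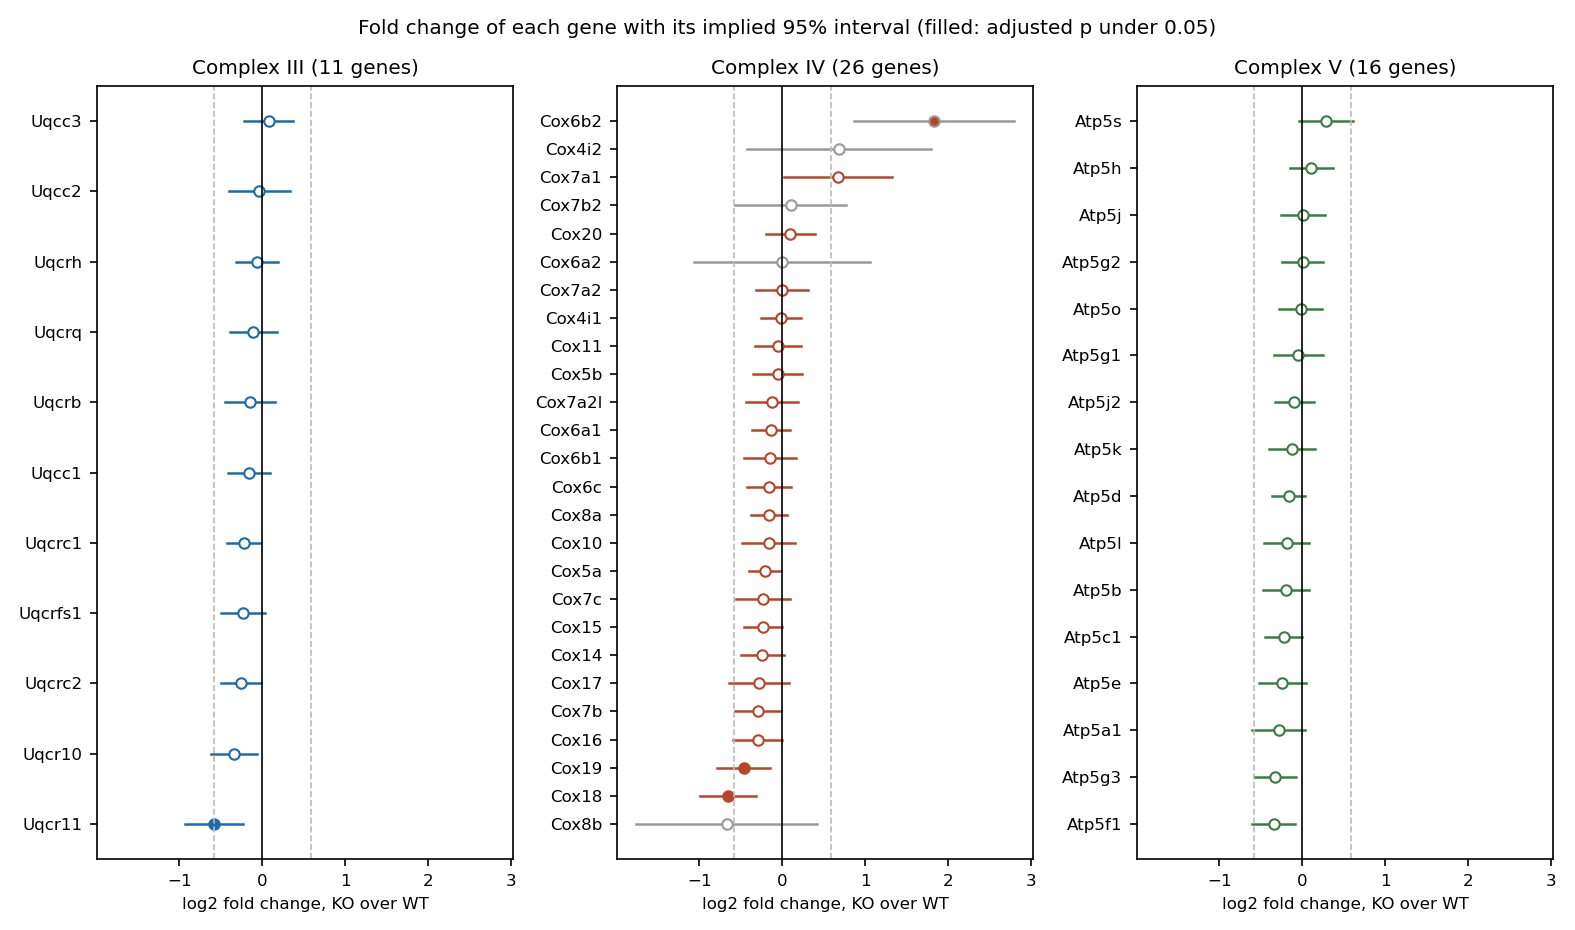
Deposited log2 fold change of KO over WT livers (4 each) on the horizontal axis for every gene of complexes III, IV and V. Points are the deposited values, bars the implied 95% interval, filled points the genes with an adjusted p under 0.05, grey bars the genes with a mean deposited value under 10, and dashed lines a 1.5-fold change. Most points lie a little left of 0, and the filled ones are Uqcr11, Cox18, Cox19 and Cox6b2.

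The 3 genes that fell were 1 subunit of complex III and 2 assembly factors of complex IV, and the 1 that rose was a minor isoform of a complex IV subunit. Uqcr11, a small subunit of complex III, had a deposited value of 2498 in KO and 3736 in WT, so that KO livers held 66.9% of the WT level. Its deposited log2 fold change was -0.58 with an implied SE of 0.18, an implied 95% interval from -0.93 to -0.23, and a DESeq2 adjusted p of 0.0156. Cox18, which inserts a mitochondrially made subunit of complex IV into the membrane, had deposited values of 173 in KO and 273 in WT (log2 fold change -0.66, implied SE 0.17, DESeq2 adjusted p = 0.00319). Cox18 showed the lowest log2 fold change of the 48 genes with a mean deposited value of 10 or more.

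Cox19, a protein of the intermembrane space that takes part in handing copper to complex IV, had deposited values of 392 in KO and 539.8 in WT. Its deposited log2 fold change was -0.46 with an implied SE of 0.16 and a DESeq2 adjusted p of 0.0463, close to the threshold, and the call was lost when fold changes were centred on the most abundant eighth of genes (-0.38, adjusted p = 0.123). Cox6b2 is known as the testis form of a complex IV subunit. Its deposited value was 11.7 in KO and 3.29 in WT. Taken as group means normalized for depth, these correspond to 60.0 normalized reads in all 8 libraries together. The deposited fold change was 3.56 (log2 1.83, implied SE 0.49, implied 95% interval 0.86 to 2.80, DESeq2 adjusted p = 0.00438). Cox6b2 rose, but even in KO livers its level stayed far below that of Cox6b1, the form that most tissues use.

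The 4 genes lie on different chromosomes, apart from the Cox18 and Cox19 pair. In GRCm38, the assembly also named mm10, Uqcr11 spans chr10:80402997-80406821 on the minus strand and Cox6b2 spans chr7:4751792-4753094 on the minus strand. Cox18 spans chr5:90214724-90224595 on the minus strand and Cox19 spans chr5:139337822-139345166, also on the minus strand. None of the 4 genes overlaps an exon of another gene in GENCODE M21. Of the 50-base stretches of its transcripts, Uqcr11 shares 6.27% with another gene, the pseudogene Gm16418, and Cox19 shares 0.335%, while Cox18 and Cox6b2 share none. Over all 53 genes, 18 share no such stretch, 13 share more than 10% of theirs, and 19 overlap an exon of another gene, 16 of them on the other strand, so their values are less certain. One of these is Atp5d, which overlaps Cbarp, a gene that rose in the deposited table (log2 fold change 0.86, adjusted p = 0.0118). The shared part is small, 1.25% of the 50-base stretches of Atp5d. Cbarp had deposited values of 55.1 in KO and 30.3 in WT, against 5561 and 6240 for Atp5d.

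Promoters are shown for the called genes that have one in the RefSeq table for GRCm38.p6, to let the reader see which binding motifs lie next to their start sites. Each stretch runs 5′ to 3′ along the gene from 200 bases before the start site to 29 after it, on the minus strand. Capitals mark exact matches to GCGCATGCG (the NRF1 motif), CCGGAAG (the core bound by ETS factors such as GABP) or GGGCGG (the SP1 motif), on either strand. The positions are chr10:80406792-80407021 for Uqcr11, chr5:139345137-139345366 for Cox19 and chr7:4753065-4753294 for Cox6b2.
Uqcr11: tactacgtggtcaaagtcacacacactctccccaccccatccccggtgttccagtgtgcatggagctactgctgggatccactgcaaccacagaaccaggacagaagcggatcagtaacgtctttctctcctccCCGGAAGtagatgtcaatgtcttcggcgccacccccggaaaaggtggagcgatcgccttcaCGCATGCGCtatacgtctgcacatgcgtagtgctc
Cox19: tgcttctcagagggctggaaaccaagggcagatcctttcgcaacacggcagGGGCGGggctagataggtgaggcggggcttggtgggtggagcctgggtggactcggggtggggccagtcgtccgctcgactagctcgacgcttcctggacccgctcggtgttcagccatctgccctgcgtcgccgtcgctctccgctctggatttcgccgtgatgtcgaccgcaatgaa
Cox6b2: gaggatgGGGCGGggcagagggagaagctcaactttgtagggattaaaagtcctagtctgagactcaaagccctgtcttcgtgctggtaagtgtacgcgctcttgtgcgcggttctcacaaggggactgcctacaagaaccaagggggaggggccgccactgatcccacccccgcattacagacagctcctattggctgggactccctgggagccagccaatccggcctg
With the start base as position 0, Uqcr11 holds CCGGAAG from position -66 and the NRF1 motif on the other strand from position -5. Cox19 and Cox6b2 hold only GGGCGG of these 3 motifs, from positions -149 and -193.

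NRF1 and GABP are factors long known to act on nuclear genes of the respiratory chain, and their motifs were common among these promoters. In all, 43 of the 53 genes had a RefSeq promoter, with 47 windows of 300 bases (250 before to 50 after the start site). GCGCNTGCG, a looser NRF1 motif that includes every GCGCATGCG match, was found in 27.7% of these windows, against 14.2% of 9164 windows of genes with a mean deposited value of 100 or more and 6.31% of all 32851 windows. It was held by 4 of 8 windows of complex III, 1 of 21 of complex IV and 8 of 18 of complex V. CCGGAAG was found in 34.0% of the windows, against 18.8% and 8.86% in those same 2 backgrounds, and GCGCATGCG in 12.8%, against 3.82% and 1.75%.

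Of the other motifs, GGGCGG was frequent and the rest were in few windows. GGGCGG was found in 44.7% of the windows of these genes, against 63.5% for expressed genes and 35.7% for all. CACGTG (the E-box) was found in 10.6%, against 10.4% and 7.15%, AAGATGGCG (YY1) in 6.38%, against 3.48% and 1.40%, and TNAAGGTCA (the ERR motif) in 1 of the 47 windows, or 2.13%, against 0.786% and 1.28%. The 23 genes with GCGCNTGCG or CCGGAAG had a median deposited log2 fold change of -0.16, and the 17 genes with neither and a mean deposited value of 10 or more had -0.12. One gene was called in each set, Uqcr11 with a motif and Cox19 without. These matches are letters in a window and show no binding.

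All 8 structural subunits of complex III had deposited log2 fold changes below 0, of which Uqcrh turned positive with centring on the most abundant eighth of genes, and 1 of them, Uqcr11, was called. Over the 11 genes of complex III the median deposited log2 fold change was -0.16 (-0.08 centred on that eighth and -0.10 with the length and level trend removed), with 4 genes lower at an unadjusted p under 0.05. The summed deposited values were 25091 in KO and 29309 in WT, so that the KO sum was 85.6% of the WT sum. Leaving out Uqcrq, the most abundant by deposited value, gave 83.7%.

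Uqcr10, another small subunit, came next after Uqcr11, with deposited values of 1561 in KO and 1977 in WT (log2 fold change -0.34, implied SE 0.14, DESeq2 adjusted p = 0.116). The core subunits Uqcrc1 and Uqcrc2 had deposited values of 4221 and 3365 in KO against 4920 and 4020 in WT, with log2 fold changes of -0.22 and -0.26 and adjusted p of 0.196 and 0.191. Uqcrfs1, the Rieske iron-sulfur protein, had deposited values of 2154 in KO and 2527 in WT (log2 fold change -0.23, adjusted p = 0.354). None of these 4 subunits passed, though all but Uqcrfs1 had an implied 95% interval wholly below 0.

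The remaining complex III subunits lay nearer 0. Deposited values of Uqcrb, which borders the ubiquinone site, were 2761 in KO and 3044 in WT (log2 fold change -0.14). Uqcrq had 5664 in KO and 6091 in WT (-0.10), and Uqcrh, the hinge protein that helps cytochrome c dock, had 1628 in KO and 1697 in WT (-0.06), again as deposited. The Uqcrh value turned to 0.02 with that centring. The assembly factors Uqcc1, Uqcc2 and Uqcc3, which act on cytochrome b, had log2 fold changes of -0.16, -0.04 and 0.08, as deposited, and adjusted p of 0.589, 0.952 and 0.851. Uqcc2 also turned sign with that centring, to 0.05.

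None of the 10 structural subunits of complex IV in the common liver form was called, and all 10 had deposited log2 fold changes below 0, between -0.29 and -0.01, of which Cox4i1, Cox5b and Cox7a2 turned positive with the most abundant eighth as centre. Their median deposited log2 fold change was -0.15. At an unadjusted p under 0.05 only Cox5a and Cox7b passed among them. Over the 21 complex IV genes with a mean deposited value of 10 or more the median was -0.16, and -0.08 and -0.09 under the same settings as for complex III. Over all 26 the summed deposited values were 38917 in KO and 42954 in WT, a KO sum of 90.6% of the WT sum.

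Cox4i1, the regulatory subunit through which ATP acts on the oxidase, had a deposited value of 5840 in KO and 5899 in WT, with an implied 95% interval of the log2 fold change from -0.25 to 0.22. Cox7a2 was as near to 0, with deposited values of 1546 in KO and 1554 in WT. Cox5a had 1768 in KO and 2047 in WT (deposited log2 fold change -0.21, adjusted p = 0.174) and its partner Cox5b had 3287 in KO and 3410 in WT (-0.05, adjusted p = 0.906). The lowest of the 10 was Cox7b, with deposited values of 2426 in KO and 2964 in WT (log2 fold change -0.29, adjusted p = 0.214). Next to it came Cox7c, at -0.23 on the deposited log2 scale (adjusted p = 0.501). Cox6a1, Cox6b1, Cox6c and Cox8a lay between -0.16 and -0.14 on the deposited log2 scale, with adjusted p from 0.471 to 0.725. Cox7a2l, which binds complex III and complex IV into supercomplexes, had deposited values of 1092 in KO and 1190 in WT (log2 fold change -0.12, adjusted p = 0.790).

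Of the 9 assembly factors of complex IV, 2 fell (22.2%), Cox18 and Cox19, and 0 rose, against 5.56% lower and 4.41% higher of all genes. The Cox19 call was lost with the most abundant eighth as centre and with the trend removed. The median deposited log2 fold change of the 9 was -0.24. The difference from the -0.15 of the structural subunits of complex IV was not tested. Cox17, the copper chaperone of the intermembrane space, had deposited values of 317 in KO and 386 in WT (log2 fold change -0.28, adjusted p = 0.431), and Cox11, which places copper in the oxidase, had 194 in KO and 200.3 in WT (-0.05, adjusted p = 0.906). The Cox11 value is uncertain, as 43.2% of its 50-base stretches occur in other genes, mostly in Tom1l1 on the other strand. Deposited values of Tom1l1 were 262 in KO and 278 in WT. Cox10 and Cox15, which make heme A, lay at -0.16 and -0.23 on the deposited log2 scale (adjusted p = 0.698 and 0.243). Among the alternatives, Cox15 passed only with the length and level trend subtracted (-0.34, adjusted p = 0.0452).

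Of the factors that handle the mitochondrially made subunits, Cox18 fell, as given above, while Cox16, Cox14 and Cox20 were not called. Cox16 had deposited values of 496 in KO and 608 in WT (log2 fold change -0.29, adjusted p = 0.249), and Cox14 had 272 in KO and 321 in WT (-0.24, adjusted p = 0.299). Cox20 alone of the 9 was above 0, with deposited values of 554 in KO and 517 in WT (log2 fold change 0.10, adjusted p = 0.843). The Cox20 and Cox16 values are uncertain, because 84.8% of the 50-base stretches of Cox20 transcripts also occur in another gene, mostly in a transcript of Hnrnpu, and 54.2% of those of Cox16 occur in Gm20498 or another gene. Deposited values of Hnrnpu were 2306 in KO and 2143 in WT (log2 fold change 0.11). Those of Gm20498 were 28.9 in KO and 51.2 in WT (log2 fold change -0.82, DESeq2 adjusted p = 0.0932).

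Isoforms of complex IV subunits that other tissues use were scarce in these livers. Cox7a1, the heart and muscle form of Cox7a2, had deposited values of 32.4 in KO and 20.3 in WT (log2 fold change 0.68, implied SE 0.33, DESeq2 adjusted p = 0.221) and did not pass. The Cox4i2, Cox6a2, Cox7b2 and Cox8b forms all had a mean deposited value under 10, with 2.29, 0.999, 0.395 and 1.64 in KO against 1.43, 0.998, 0.369 and 2.61 in WT. These 4 and Cox6b2 are the 5 genes under the level filter. Deposited fold changes of the lowest genes appear shrunken toward 0, as genes with about 1 read in all 8 libraries have a log2 fold change of 0.11 to 0.12 in size. How far this holds for genes with more reads was not tested.

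Per length, the minor forms made up a small share of each isoform set. Computed from the deposited values, Cox6b2 was 0.396% of the Cox6b pair in KO and 0.101% in WT, and Cox7a1 was 3.86% of the Cox7a pair in KO and 2.44% in WT. Cox4i2 was 0.0410% in KO and 0.0252% in WT, Cox6a2 0.0138% in KO and 0.0125% in WT, Cox7b2 0.0335% in KO and 0.0256% in WT, and Cox8b 0.0527% in KO and 0.0750% in WT, each of its own set by the deposited values. The common form supplied at least 96.1% of every pair in KO. Of 8 striated muscle markers 4 were in the table, none at a mean deposited value of 10 or more, and their summed deposited values were 1.83 in KO and 1.86 in WT.

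None of the 16 complex V genes was called, with 3 lower at an unadjusted p under 0.05, namely Atp5f1, Atp5g3 and Atp5c1. Among the 16 genes, 12 had a deposited log2 fold change below 0, among which Atp5g1 and Atp5o turned positive with the most abundant eighth as centre, and the median over the 16 was -0.15 (-0.06 with that centre and -0.05 with the trend removed). The summed deposited values were 65849 in KO and 74359 in WT, a KO sum of 88.6% of the WT sum. At an adjusted p under 0.10, Atp5f1 and Atp5g3 would be called.

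In the catalytic head, where ATP is made, the alpha subunit gene Atp5a1 had deposited values of 11223 in KO and 13656 in WT (log2 fold change -0.28, implied SE 0.16, DESeq2 adjusted p = 0.327). Atp5b, the beta subunit with the catalytic sites, had the highest values of all 53 genes, with 14705 in KO and 16855 in WT as deposited (log2 fold change -0.20, adjusted p = 0.507). The central stalk genes Atp5c1, Atp5d and Atp5e, for the gamma, delta and epsilon subunits, had deposited log2 fold changes of -0.23, -0.17 and -0.24, with adjusted p of 0.223, 0.386 and 0.373. All 5 genes of the head and central stalk were thus below 0 in the deposited table without passing the test.

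Subunits of the peripheral stalk, which keeps the head from turning, lay on both sides of 0. Atp5f1, for subunit b, had deposited values of 3385 in KO and 4305 in WT (log2 fold change -0.35, implied SE 0.13, DESeq2 adjusted p = 0.0676), the lowest of complex V. Exons of Atp5f1 overlap those of Wdr77 on the other strand, which fell in the same deposited table (-0.33, adjusted p = 0.0432). The sources used here do not say whether counting used the strand, so reads in the overlap of the pair cannot be told apart. Of the 50-base stretches of Atp5f1 transcripts, 14.3% occur in other genes. Deposited values of Wdr77 were 321 in KO and 403 in WT. Atp5h, for subunit d, had 3547 in KO and 3292 in WT as deposited (0.11, adjusted p = 0.773), and Atp5j had 3530 in KO and 3514 in WT (0.01). Atp5o, the subunit that joins stalk and head, had deposited values of 2726 in KO and 2765 in WT (log2 fold change -0.02). Of the 50-base stretches of Atp5o, 41.6% occur in other genes.

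The proton-carrying ring of complex V is built from 1 protein made by 3 genes. Atp5g3 had deposited values of 3243 in KO and 4068 in WT (log2 fold change -0.33, implied SE 0.13, adjusted p = 0.0960). Atp5g1 had 3467 in KO and 3579 in WT (-0.05) and Atp5g2 had 2151 in KO and 2145 in WT (0.0040), as deposited. Per length, Atp5g3 was 36.7% of the set in KO and 41.7% in WT, Atp5g1 was 35.7% in KO and 33.4% in WT, and Atp5g2 was 27.5% in KO and 24.9% in WT, by the deposited values. The difference in makeup was not tested. Reads of Atp5g1 and Atp5g2 may be split with other genes, as 11.1% and 38.3% of their 50-base stretches occur elsewhere, while those of Atp5g3 occur nowhere else.

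None of the small membrane subunits of complex V passed. Atp5l, for subunit g, had deposited values of 2844 in KO and 3237 in WT (log2 fold change -0.19, adjusted p = 0.514), Atp5j2, for subunit f, had 2832 in KO and 3027 in WT (-0.10), and Atp5k, for subunit e, had 726 in KO and 792 in WT (-0.13). Atp5s, known as coupling factor B, is the least abundant gene of the 16 and the highest in fold, with deposited values of 119 in KO and 97.7 in WT (log2 fold change 0.29, implied SE 0.17, adjusted p = 0.338).

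In complexes III and IV, structural subunits stood above assembly factors per kb in both groups, and complex V has no assembly factor among these genes. Expressed per kb of gene length, the deposited values of the 33 structural subunits ran between 1640 and 10699 in KO and between 1925 and 11758 in WT, with medians of 4437 in KO and 5252 in WT. Those of the 12 assembly factors ran between 85.4 and 1236 in KO and between 88.7 and 1154 in WT. The assembly factor ranges therefore lie wholly below those of the structural subunits. For each complex the 3 genes highest per kb in KO were Uqcr11, Uqcrb and Uqcrq for complex III, Cox6a1, Cox7c and Cox8a for complex IV, and Atp5b, Atp5h and Atp5d for complex V. The deposited per-kb level of Uqcr11 was 5730.3 in KO and 8569 in WT, so that it led complex III in both groups although it fell, while Cox6a1 led complex IV with 10699 in KO and 11758 in WT and Atp5b led complex V with 7826 in KO and 8970.4 in WT.

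**Figure D2:**
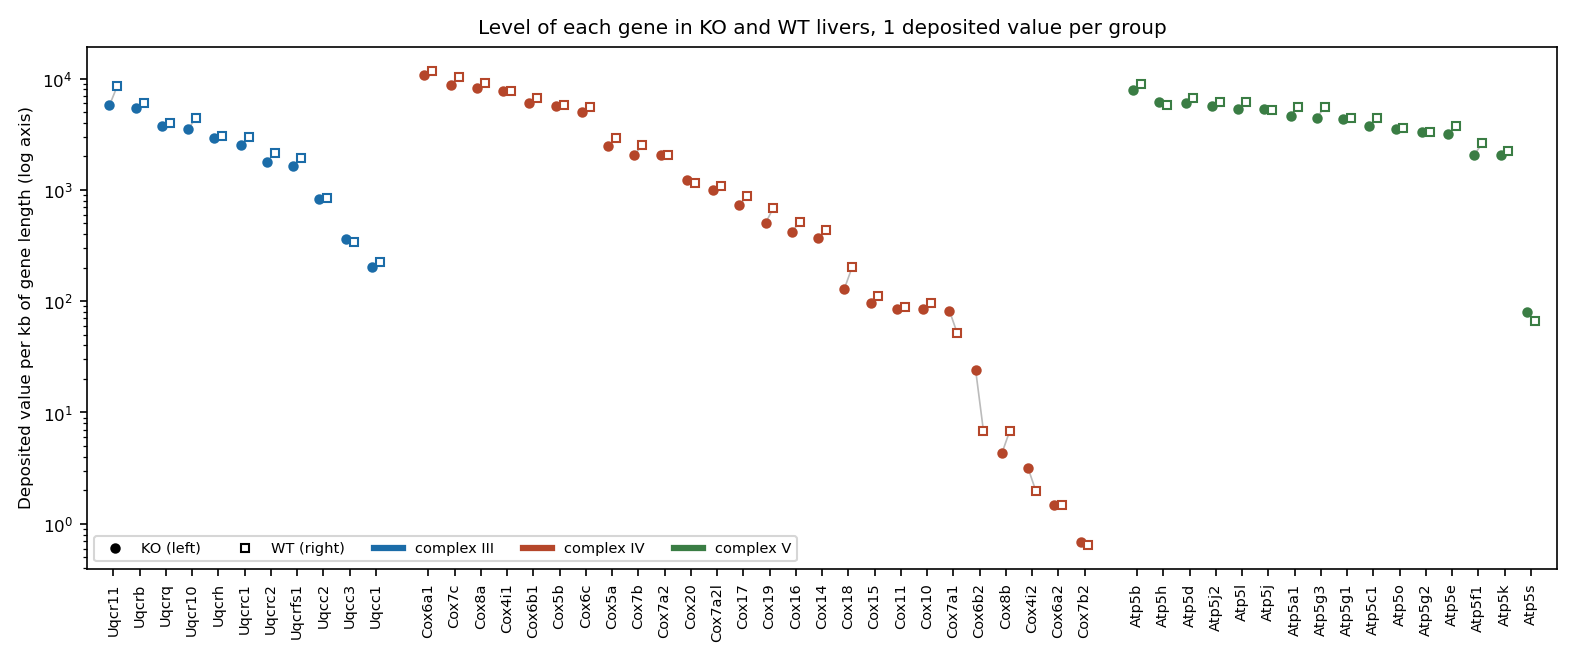
Deposited value per kb of gene length on a log axis, for KO (filled circle, left) and WT (open square, right) livers, 1 value per gene and group from 4 livers each, ordered by the KO level within complexes III, IV and V. The isoforms of other tissues, from Cox7a1 rightward in complex IV, and Atp5s lie far below the structural subunits, and Cox6b2 shows the widest gap between groups.

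Other mitochondrial gene families in the same table also had medians below 0, as deposited and after recentring. The 46 genes with symbols starting with Nduf stand here for complex I, which feeds electrons into the chain. They include Ndufa4, listed below as a complex IV partner. Their median deposited log2 fold change was -0.13, with 3 lower (6.52%) and 0 higher, and 82.6% below 0. Of all genes, 5.56% were called lower and 4.41% higher. Among genes with a mean deposited value of 10 or more, 48.7% were below 0. The 78 genes of the mitochondrial ribosome, which makes the mitochondrially encoded subunits, had a median of -0.16. Of these, 8 were lower (10.3%) and 0 higher, and 85.9% were below 0 in the deposited table. The 79 genes of the cytosolic ribosome with a mean deposited value of 10 or more had a median of -0.03, which turned to 0.05 with the most abundant eighth as centre and 0.04 with the trend removed, and 1 of 82 was called, as lower, with 64.6% below 0. Their summed deposited values in KO were 90.9%, 89.7% and 97.9% of the WT sums. With those settings the medians of complex I were -0.05 and -0.06 and those of the mitochondrial ribosome -0.08 and -0.08. The difference between these families and complexes III to V was not tested.

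**Figure D3:**
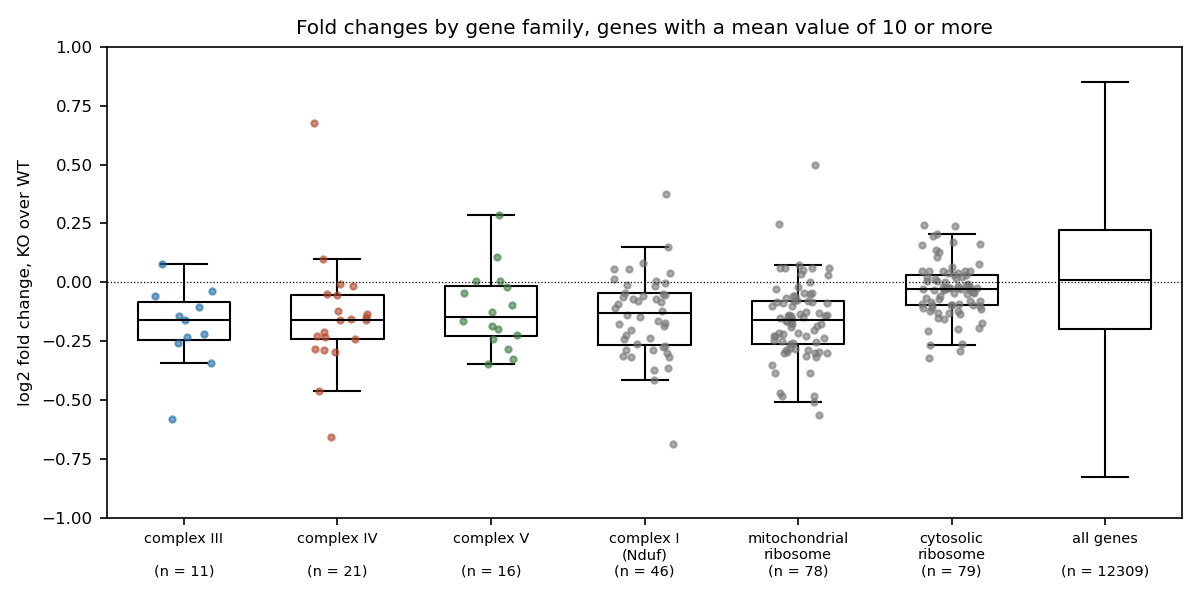
Deposited log2 fold change of KO over WT livers by gene family, for genes with a mean deposited value of 10 or more. Points are genes, boxes the quartiles with the median as a line, and whiskers reach the farthest gene within 1.5 times the box height, with genes beyond them not drawn for all genes. The deposited medians of complexes III, IV and V (-0.16, -0.16 and -0.15), complex I (-0.13) and the mitochondrial ribosome (-0.16) lie below that of all genes (0.01).

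Several genes that work with these complexes fell by the deposited calls, and none of those listed rose, but some of the calls depended on the scaling. The share of all genes called lower, 5.56%, is the background for each list, and the lists are short. With genes of a mean deposited value under 10 left out and p adjusted again, 1006 of 12309 genes were lower. Of 5 complex III partners in the table, 2 fell and 0 rose, with a median deposited log2 fold change of -0.43. Cycs, cytochrome c itself, had deposited values of 1993 in KO and 2683 in WT (log2 fold change -0.43, implied SE 0.12, adjusted p = 0.00830), a call lost once the trend with gene length and level was taken out (adjusted p = 0.0988). Bcs1l, which inserts the Rieske protein, had 207 in KO and 289 in WT as deposited (-0.48, adjusted p = 0.00643). Cyc1, the cytochrome c1 subunit, which does not carry a Uqcr symbol, had 3015 in KO and 3439 in WT and did not pass (deposited log2 fold change -0.19, adjusted p = 0.316).

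Of 20 complex IV partners, 1 fell and 0 rose, with a median deposited log2 fold change of -0.19 for the 19 with a mean value of 10 or more. It was Sco2, a copper chaperone of complex IV, with deposited values of 380 in KO and 851 in WT (log2 fold change -1.17, implied SE 0.15, adjusted p = 3.70e-13). Sco2 shares exons with Tymp on the same strand, whose deposited values were 587 in KO and 1239 in WT (log2 fold change -1.08, adjusted p = 0.000528), and with Ncaph2 on the other strand, so the Sco2 value is uncertain. The most abundant partner not called was Ndufa4, with deposited values of 4161 in KO and 4699 in WT (log2 fold change -0.18, adjusted p = 0.393).

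Of 12 complex V partners, 2 fell and 0 rose, with a median deposited log2 fold change of -0.21 for the 11 with a mean value of 10 or more. Tmem70, an assembly factor of the ring, had deposited values of 494 in KO and 632 in WT (log2 fold change -0.36, adjusted p = 0.0220), and lost its call with the most abundant eighth as centre (adjusted p = 0.105) and with the trend removed (adjusted p = 0.110). Slc25a5, an ADP/ATP carrier, had 5002 in KO and 6479 in WT as deposited (-0.37, adjusted p = 0.00316). The phosphate carrier Slc25a3 had 3587 in KO and 4330.0 in WT (-0.27, adjusted p = 0.0905) and did not pass in the deposited table. Atpif1, the inhibitor of ATP synthase, was the highest of the list with 318 in KO and 255 in WT as deposited (0.32, adjusted p = 0.0962), and passed as higher under both of those settings (adjusted p = 0.0215 and 0.0210).

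Of 14 supercomplex and cristae factors, 6 fell and 0 rose as deposited, against 5.56% and 4.41% of all genes, with a median deposited log2 fold change of -0.27. Only Chchd6 and Phb kept their calls when the fold changes were centred on the most abundant eighth, and likewise once the trend with length and level was taken out, so that 2 of 14 were lower under each. Of all 16640 genes, 625 were lower with the centring and 822 with the trend taken out. Immt, Chchd3, Chchd6, Apoo, Apool and Minos1 belong to the MICOS complex, which shapes the folds of the inner membrane where complexes III to V sit. Immt had deposited values of 1391 in KO and 1810.3 in WT (log2 fold change -0.38, adjusted p = 0.00729), Chchd3 had 1412 in KO and 1774 in WT (-0.33, adjusted p = 0.00464), and Apoo had 266 in KO and 351 in WT (-0.40, adjusted p = 0.0419). Chchd6 fell farthest, to 24.95 in KO against 72.6 in WT as deposited (log2 fold change -1.54, implied SE 0.33, adjusted p = 9.90e-05). Apool and Minos1 did not pass, at -0.37 and -0.12 on the deposited log2 scale (adjusted p = 0.0704 and 0.739).

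The prohibitins Phb and Phb2, which form a ring scaffold in the inner membrane, fell as well. Phb had deposited values of 1823 in KO and 2530 in WT (log2 fold change -0.47, adjusted p = 0.00187) and Phb2 had 3077 in KO and 3830 in WT (-0.32, adjusted p = 0.0285). Of 8 complex II genes, 2 fell by the deposited calls and 0 rose, a number that went down to 1 with the most abundant eighth as centre and to 0 with the trend removed. Sdha, the flavoprotein subunit, had deposited values of 4137 in KO and 6057 in WT (log2 fold change -0.55, adjusted p = 0.0127), and the assembly factor Sdhaf4 had 109 in KO and 150.3 in WT (-0.47, adjusted p = 0.0278).

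Of 22 regulators of mitochondrial biogenesis, 1 fell and 0 rose as deposited, against 5.56% and 4.41% of all genes. Their median deposited log2 fold change was 0.12, with 12 of 22 above 0. Centred on the most abundant eighth, 5 of them passed as higher, namely Gabpb2, Nrf1, Pprc1, Sirt1 and Yy1, and with the trend removed 1 did, Yy1, with Esrrb passing as lower. Of all 16640 genes, 1168 were higher and 625 lower with that centring, and 722 higher and 822 lower with the trend removed. The regulator that fell as deposited was Esrrg, an estrogen-related receptor, with deposited values of 22.7 in KO and 56.6 in WT (log2 fold change -1.32, implied SE 0.40, adjusted p = 0.0140). Ppargc1a, the coactivator PGC-1 alpha, had 133 in KO and 117 in WT as deposited (0.18, adjusted p = 0.847) and the mitochondrial DNA packaging factor Tfam had 529 in KO and 607 in WT (-0.20, adjusted p = 0.484). Nrf1 lay at 0.38 on the deposited log2 scale (adjusted p = 0.118), and Ppara, the most abundant of the list, had -0.26. Of 5 genes of proton leak and other uses of the gradient in the table, 0 were called.

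**Figure D4:**
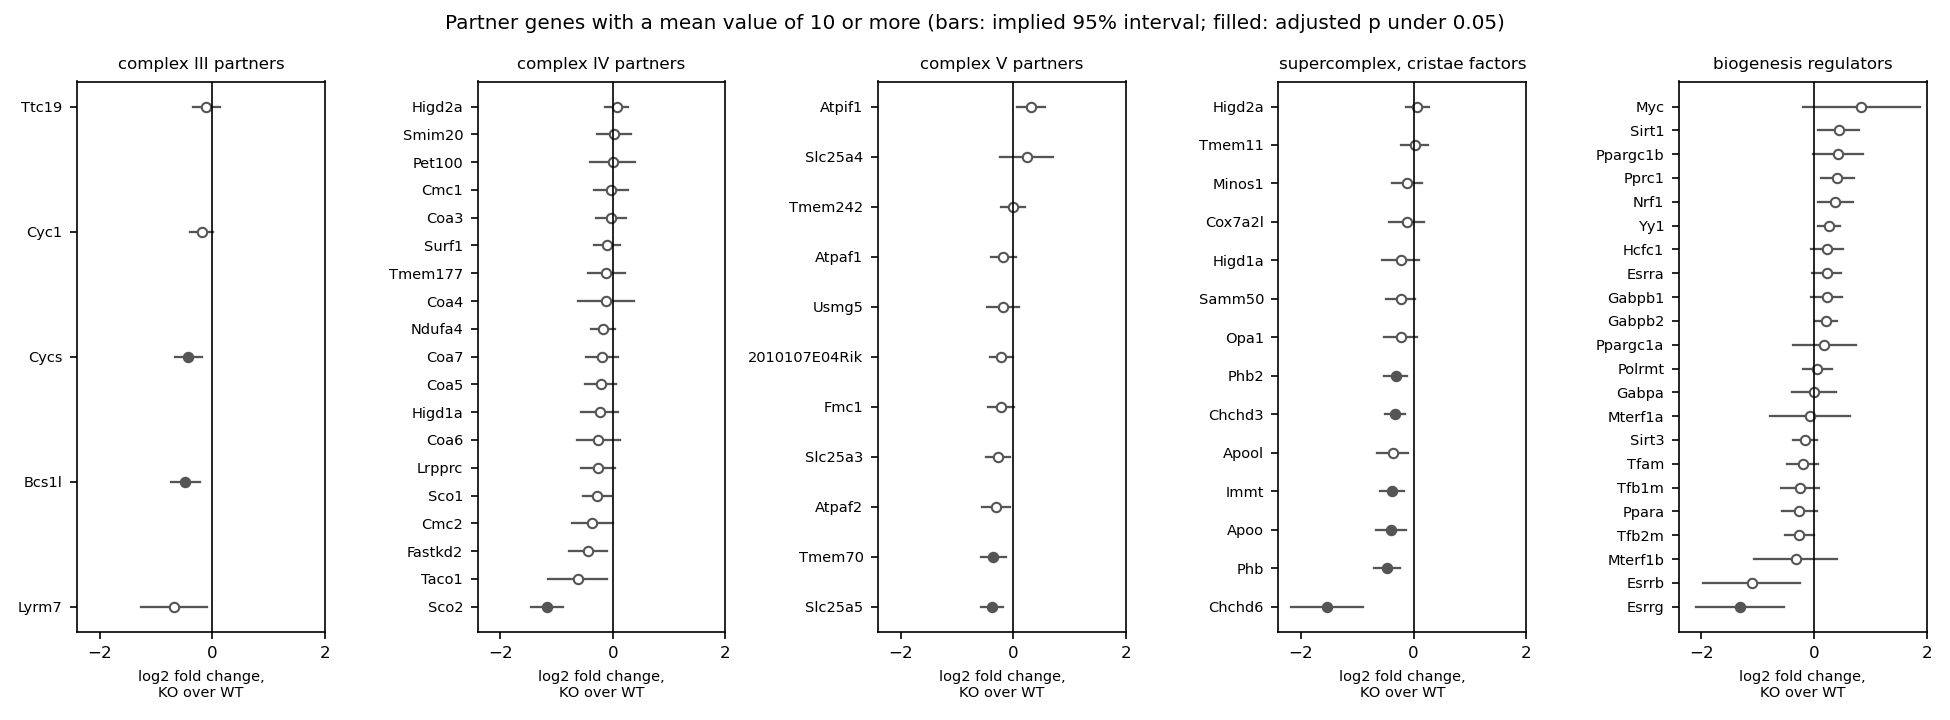
Deposited log2 fold change of KO over WT livers for partner genes with a mean deposited value of 10 or more, in 5 lists. Points are the deposited values, bars the implied 95% interval, and filled points have an adjusted p under 0.05. The filled points all lie left of 0, the farthest being Chchd6 (-1.54), Esrrg (-1.32) and Sco2 (-1.17).

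Markers of hepatocytes, the main cells of the liver, were abundant in both groups. Of all genes, 4.41% were called higher and 5.56% lower, which is the background for each marker list, and the lists are short. The 8 hepatocyte markers had summed deposited values of 2187173 in KO and 1681424 in WT, and 2 of them, Apoa1 and Hnf4a, rose. Most of that sum is Alb, with deposited values of 1629594 in KO and 1192099 in WT, which was not called (adjusted p = 0.0631). Tat, Ass1 and Apob, also not called, lay below 0 (-0.48, -0.32 and -0.03 on the deposited log2 scale). Of 6 neutrophil markers 2 rose (S100a9 and Retnlg), with summed deposited values of 168 in KO and 74.7 in WT. Retnlg had a mean deposited value under 10 and a DESeq2 adjusted p of 0.0489, close to the threshold. The other neutrophil markers were not called, with S100a8, Mpo and Ngp above 0 and Ly6g below 0 (-0.58 on the deposited log2 scale). No marker of Kupffer cells (7), cholangiocytes (6), stellate cells (7), endothelial cells (6), lymphocytes (7), smooth muscle (3) or erythroid cells (5) was called in the deposited table. Of 4 white adipocyte markers in the table, 0 were called. Cfd had deposited values of 57.8 in KO and 135 in WT (log2 fold change -1.23, DESeq2 adjusted p = 0.171). Retn (-1.42, DESeq2 adjusted p = 0.0757), Adipoq and Lep had mean deposited values under 10. Of the 4 brown adipocyte markers in the table, Cidea and Elovl3 fell and make up most of the summed deposited values of 692 in KO and 2694 in WT. Ppargc1a did not pass (0.18 on the deposited log2 scale). Dio2 was near the floor, with deposited values of 0.280 in KO and 0.242 in WT, and did not pass either. Ucp1, which defines brown fat, was not among these 4 brown adipocyte markers. The part of these cell types in the fold changes of complexes III to V was not tested.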

How the data were processed

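Whole livers of 4 KO and 4 WT mice were profiled by bulk RNA sequencing, and grouped by genotype in the labels. The submitters' processing notes name mm10 as the build and DESeq2 as a tool; versions, aligner, counting step and strand setting are not given there or in the labels. One table of 16640 genes was deposited. For KO and for WT it gives 1 signal per gene, normalized for depth by the authors, as the column headers and values show. Its log2 column is the authors' log2 fold change of KO over WT and equals the log2 ratio of the deposited columns to within 4.71e-08. Its p-value columns are the authors' unadjusted and adjusted p, and the deposited adjusted p matches Benjamini-Hochberg over all genes to within 1.74e-06. All 707 genes with about 1 read in 8 libraries have values above 0 in both groups, the lowest being 0.115, so the deposited values and fold changes of such genes appear shrunken. Whether the deposited values of genes with more reads are plain group means was not tested, and sums, percentages and shares rest on them.

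With 1 value per gene and group, no model over livers could be fitted, so calls are the authors' (adjusted p under 0.05). The implied SE is the size of the log2 fold change divided by the normal score of its two-sided p, which assumes a Wald test; its largest value was 0.57, and it could not be checked against a spread between livers. Depth per liver is unknown here. Named genes were all called ones, the 3 highest and 3 lowest per complex, the 3 most abundant per kb, and isoform sets; the remaining ones were added to account for every gene. The gene lists and rule were chosen with earlier results of these data known. Sequence sharing, computed for the 53 genes and not for their partners, used GENCODE M21 and promoters RefSeq GRCm38.p6. Scripts ran in Python 3.11.15 with pandas 2.3.3, numpy 2.4.6, scipy 1.17.1 and matplotlib 3.10.9, and the recentring step was tested on simulated data.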

Additional observations from a re-analysis of the deposited data

How the results depend on the processing

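No paired analysis was possible because the table holds 1 value per gene and group, and leaving out livers, edgeR's scaling and DESeq2's size factors were not run for the same reason. Of the recomputed counts, medians and sums, 114 stayed within a set bound and 28 moved. The bound was 1.5 times for counts. For medians and sums it was the median implied SE of single genes, 0.14, 0.15 and 0.13 in complexes III, IV and V. That is not the error of a median or a sum. It is about as large as the medians, so a median that shrank toward 0 still counted as staying. At an adjusted p under 0.01, 975 of all genes were called (414 higher, 561 lower in KO), 0 in complex III, 1 lower in complex IV, and 2 in complexes III to V together, 1 of them lower. At 0.10, 2 were lower in complex V and 5 lower together. Leaving out genes with a mean value under 10 left 0 higher in complex IV and together. Centring on the most abundant eighth gave 1168 higher of all genes, 65.1% of the calls against 44.2% as deposited, and 1 lower in complex IV, since Cox19 lost its call; the cause was not tested. The median log2 fold change stayed below 0 in each complex but shrank, to -0.076, -0.078 and -0.065 in complexes III, IV and V with that centring and to -0.097, -0.089 and -0.052 with the length and level trend removed. For the partner lists these 2 settings were chosen after seeing the data. As background, 625 of all genes were lower with the centring, and 722 were higher and 822 lower with the trend removed. With the centring, complex V partners had 1 higher and 1 lower, biogenesis regulators 5 higher, complex II 1 lower and cristae factors 2 lower. With the trend removed, complex III partners had 1 lower, complex IV partners 2 lower, complex V partners 1 higher and 1 lower, regulators 1 higher and 2 lower, complex II 0 lower and cristae factors 2 lower. Genes not called that turned sign were, centred on that eighth, Uqcc2 (0.046), Uqcrh (0.022), Cox11 (0.032), Cox4i1 (0.067), Cox5b (0.029), Cox7a2 (0.074), Atp5g1 (0.036) and Atp5o (0.061). With the length and level trend removed they were Uqcc2 (0.041), Uqcrh (0.011), Cox4i1 (0.056), Cox5b (0.017), Cox7a2 (0.063), Cox6a2 (-0.074), Atp5g1 (0.025) and Atp5o (0.050), and Cox19 lost its call (adjusted p = 0.129). Centred on the median of genes with a mean value of 10 or more they were Cox6a2 (-0.0084), Atp5g2 (-0.0061) and Atp5j (-0.0035).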
